A study of Mus musculus with 9 samples.

Results

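Gene expression in the resting mouse hair follicle was compared between the lower follicle, sampled as hair germ and as dermal papilla, and the bulge above it. Of 7796 genes tested on 9 arrays, 394 (5.05%) differed from bulge in both lower populations, in 1 direction and on every day sampled. Of these shared genes 154 (1.98%) were higher than in bulge and 240 (3.08%) were lower. A gene counted as shared when the larger of its p values for hair germ minus bulge and dermal papilla minus bulge (limma), adjusted by the Benjamini-Hochberg method over all 7796 genes, was below 0.05 and all 6 same-day differences from bulge had the same sign. Adjusted p values below are these unless another contrast is named. Both differences use the same 3 bulge arrays, so the matching signs describe how the genes were chosen.

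The design addressed signals from dermal papilla to epithelium and what separates hair germ from bulge. All 9 arrays came from sorted back skin cells of virgin CD1 females of genotype Lef1RFP/K14H2BGFP, which carry a red fluorescent reporter named for Lef1 and a green histone reporter named for keratin 14. Bulge cells were sorted as RFP(-) GFP(+) CD34(+) with low P-cadherin, and hair germ cells as RFP(-) GFP(+) CD34(-) with high P-cadherin. Dermal papilla cells were sorted as RFP(+) GFP(-) and negative for CD45, CD117 and integrin alpha 7, to which the titles add CD34. Each population was sampled with 1 array on postnatal day 43 (early telogen, the resting phase), 56 (middle) and 69 (late), and RNA was amplified in 2 rounds. The number of mice behind an array is not given, so the 3 days serve as replicates and p values measure the spread between these arrays.

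The bulge holds the slow-cycling stem cells of the follicle, the hair germ is the small epithelial cluster beneath it, and the dermal papilla is the mesenchymal cluster that touches the germ. In the WNT pathway, secreted WNT proteins act through Frizzled receptors and beta-catenin on LEF/TCF factors, and several targets feed back as inhibitors. BMP signals are known to hold bulge cells at rest, and the hair germ is known to respond before the bulge when a new growth phase starts. Hair germ and dermal papilla lie side by side but belong to different tissues, epithelium and mesenchyme.

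The sorts matched their labels for most markers, with differences in purity and RNA quality between arrays. Summed linear signals of 18 dermal papilla markers were 649, 1330 and 671 in hair germ on days 43, 56 and 69, 654 to 732 in bulge and 22676 to 32347 in dermal papilla. The dermal papilla marker Crabp1 was at 4.67 to 4.82 log2(signal + 16) units in bulge and at 4.12, 6.16 and 5.33 in hair germ, against 12.91 to 13.25 in dermal papilla, where 4 is the value of zero signal. Hair germ of day 56 was therefore the hair germ array with the most dermal papilla marker signal. Summed signals of 14 keratinocyte markers were 1883, 640 and 660 in dermal papilla on days 43, 56 and 69, against 43589 to 80927 on the epithelial arrays. The GAPDH 3'/5' ratio, which rises as RNA is shortened, was above 6 in hair germ of days 43 and 69 (8.34 and 7.90) and dermal papilla of day 43 (6.62), and 2.97 to 5.09 on the other arrays. A fit that left out these 3 arrays and, at the same time, the day term is called the GAPDH-restricted fit below. Hair germ of day 56 is the only hair germ array left in it, so hair germ has no replicate there. Its adjusted p values are therefore weak guides, and its same-sign rule covers hair germ on day 56 only. In sorted bulk RNA, fewer cells of a type and less RNA per cell cannot be told apart.

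**Figure D1:**
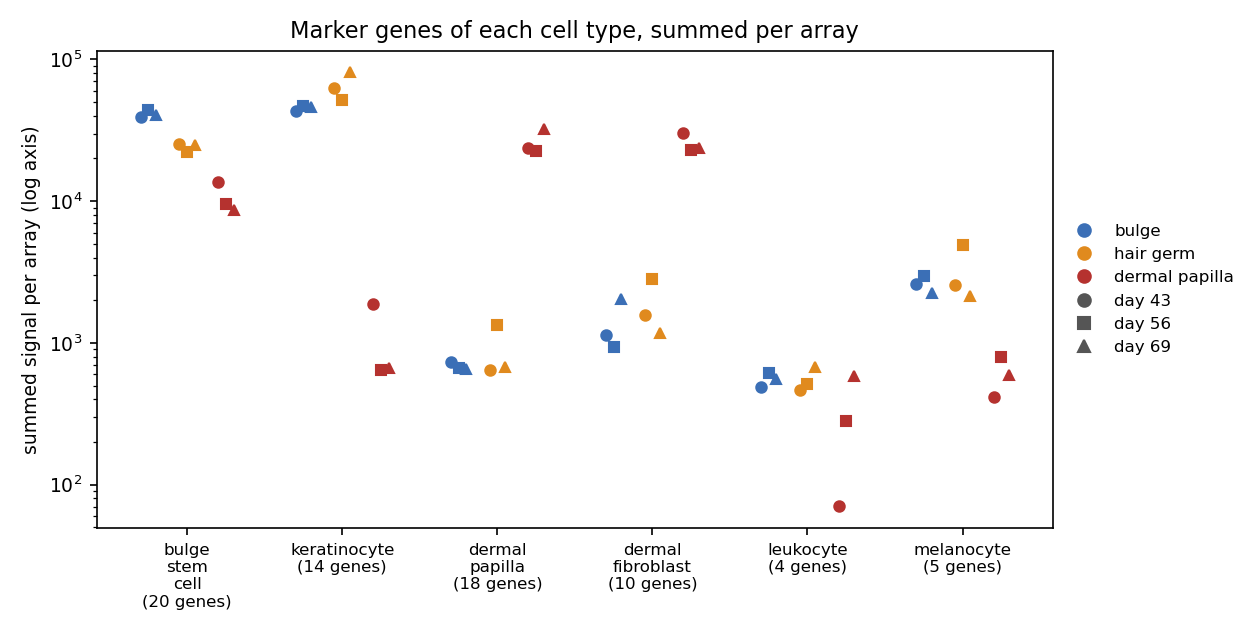
Linear signals of cell type marker genes summed per array on a log axis, for bulge (blue), hair germ (orange) and dermal papilla (red) on day 43 (circle), 56 (square) and 69 (triangle). Hair germ of days 43 and 69 sits at the bulge level of dermal papilla markers, with sums of 649 and 671, and hair germ of day 56 at 1330.

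Differences from bulge were larger in dermal papilla. Hair germ differed from bulge in 1541 genes (19.8%), 952 higher (12.2%) and 589 lower (7.56%), and dermal papilla in 2740 (35.1%), 1257 higher (16.1%) and 1483 lower (19%). Their mean differed in 2255 genes (28.9%), 1201 higher (15.4%) and 1054 lower (13.5%). The median over all genes was 0.05 log2 units for the mean, 0.10 for hair germ and -0.05 for dermal papilla. Centring each array on its median moved these to -0.09, -0.10 and -0.11 and the splits to 940 higher and 1355 lower for the mean, 613 and 941 for hair germ and 126 and 358 for the shared genes. Quantile normalization gave 1050 and 1174, 693 and 794, and 137 and 306.

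The median difference of the mean from bulge was 1.92 log2 units for the 154 shared higher genes (range 0.88 to 4.78) and -2.04 for the 240 shared lower genes (range -6.66 to -0.87). The 6 lower follicle arrays lay above all 3 bulge arrays in 148 of the higher genes and below them in 234 of the lower ones. Over all genes such separation was seen upward in 654 (8.39%) and downward in 662 (8.49%). In 69 higher and 128 lower genes every same-day difference was at least 2-fold, against 71 (0.911%) and 129 (1.65%) of all genes whatever their p value. Without any test, 1003 genes (12.9%) were higher and 939 (12%) lower in all 6 same-day differences. Leaving out any single bulge array left 75 to 83 higher and 105 to 155 lower genes, and leaving out dermal papilla of day 56 left 101 higher genes. In all 19 alternative settings 41 higher and 73 lower genes kept the call.

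**Figure D2:**
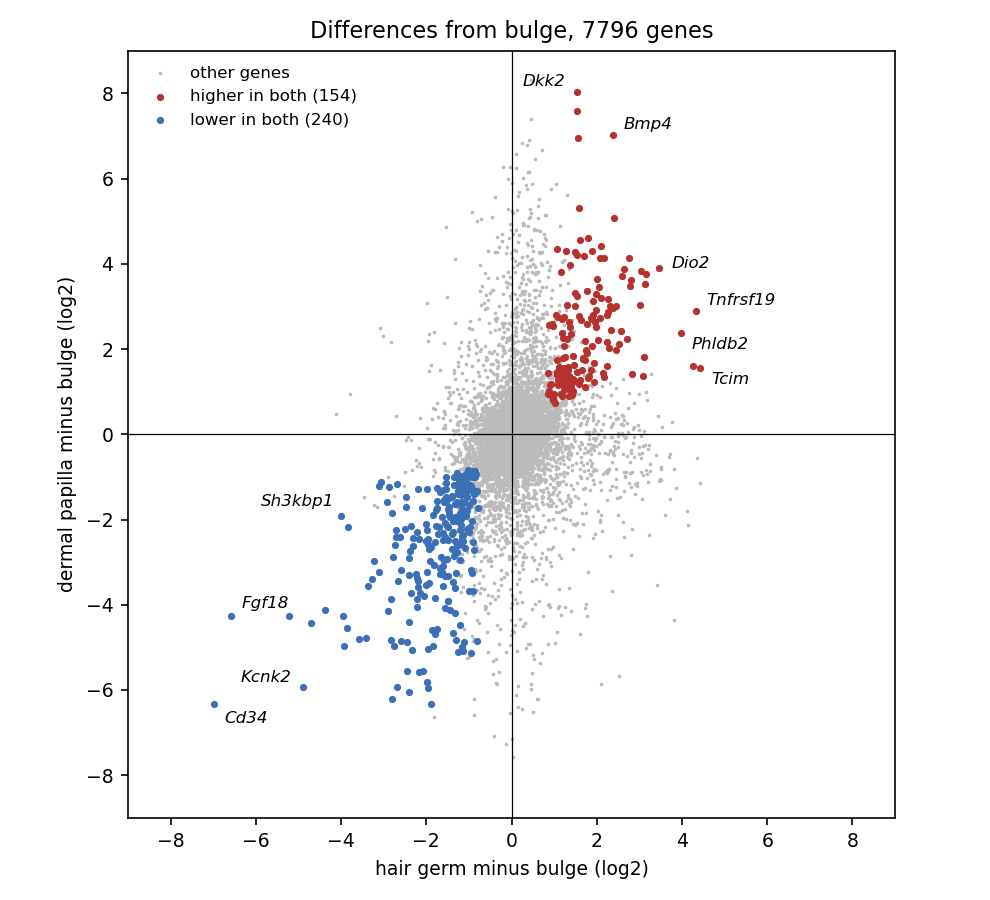
Log2 difference from bulge of 7796 genes in hair germ (horizontal) and dermal papilla (vertical), with 154 shared higher genes in red, 240 shared lower genes in blue and other genes in grey. The red points lie in the upper right and the blue points in the lower left by construction, and the red points nearest the top, such as Dkk2 and Bmp4, lie far closer to zero in hair germ than in dermal papilla.

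Apcdd1, Tnfrsf19 and Phldb2 marked the lower follicle on both sides of the tissue border. Apcdd1 encodes a membrane inhibitor of WNT signalling that is itself a WNT target. It stood at 8.99, 9.32 and 9.25 log2(signal + 16) units in bulge on days 43, 56 and 69, at 11.73, 11.16 and 12.43 in hair germ and at 13.12, 12.67 and 12.93 in dermal papilla. Bulge was lowest and dermal papilla highest on each day, with no overlap between populations. The mean was 3.15 ± 0.23 (SE) above bulge, 8.89-fold on this scale, which understates changes of dim genes (limma, adjusted p = 0.000346). All 4 Apcdd1 probe sets kept were higher in both populations.

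Tnfrsf19 (Troy), a tumour necrosis factor receptor family member and WNT target, stood at 5.54, 4.74 and 4.86 in bulge, at 9.27, 9.60 and 9.24 in hair germ and at 7.24, 7.63 and 8.91 in dermal papilla. Hair germ was highest on each day and no lower follicle array reached the bulge range. The mean was 3.60 ± 0.33 (SE) above bulge (limma, adjusted p = 0.00152), and dermal papilla was below hair germ by a log2 of -1.44 (limma, adjusted p = 0.0124 for that contrast). Phldb2 encodes LL5-beta, which anchors microtubule ends at the cell cortex near the basement membrane. It stood at 5.56, 5.14 and 5.02 in bulge, at 9.62, 9.14 and 8.93 in hair germ and at 7.50, 7.09 and 8.28 in dermal papilla. Its order was that of Tnfrsf19, without overlap, and the mean was 3.18 ± 0.26 (SE) above bulge (limma, adjusted p = 0.00115). The calls of Apcdd1, Tnfrsf19 and Phldb2 held in all 19 alternatives.

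**Figure D3:**
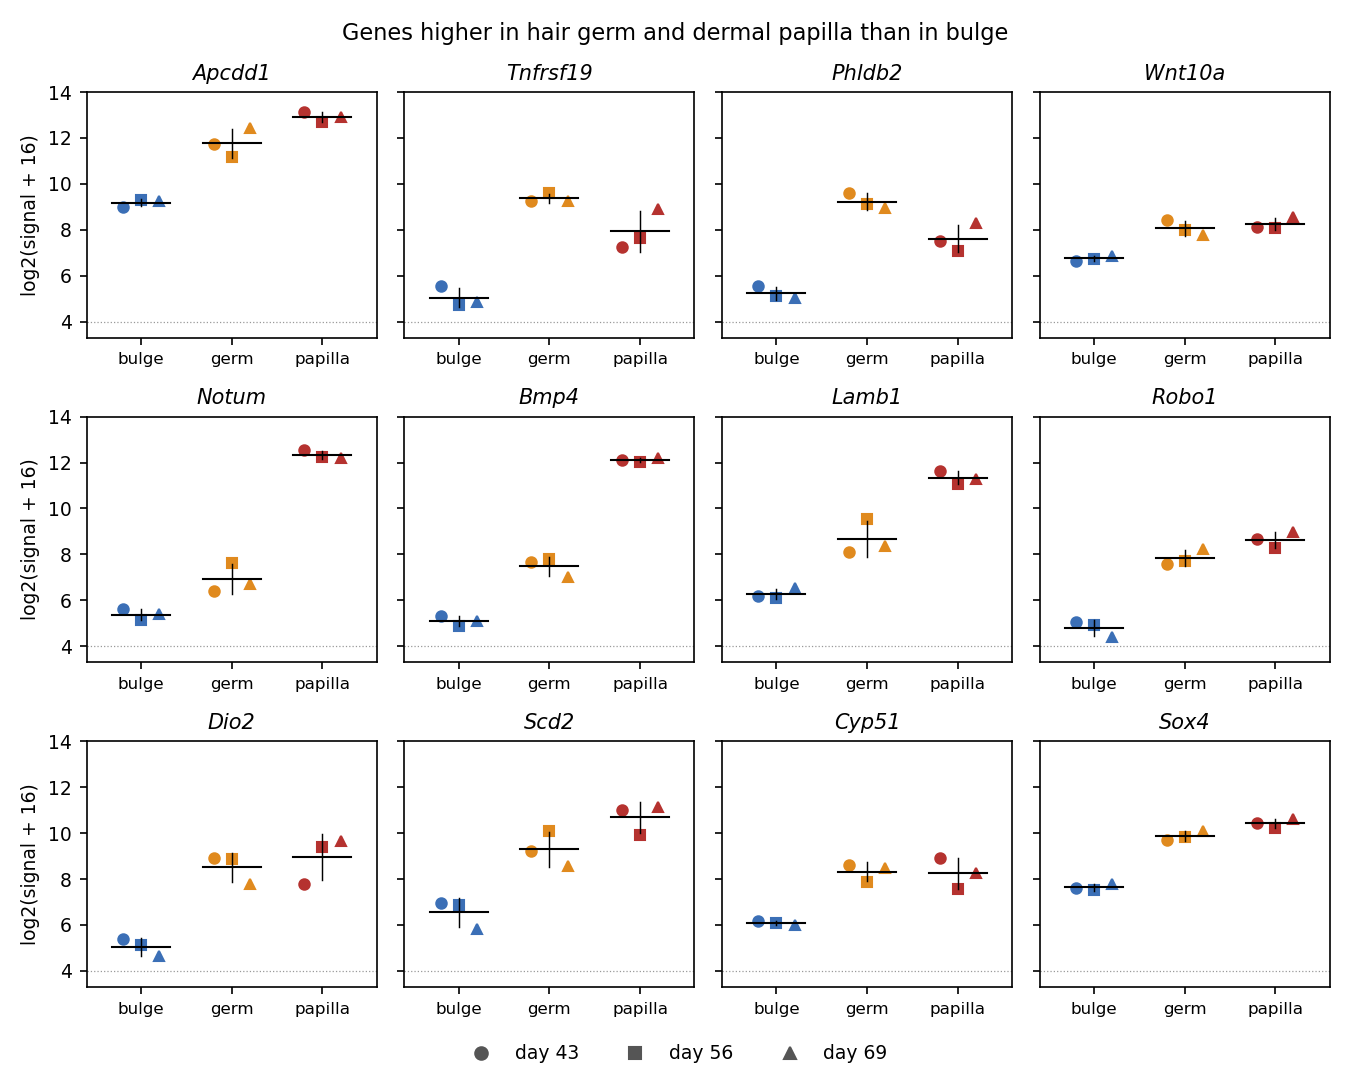
Expression of 12 shared higher genes as log2(signal + 16) per array, by population and day (symbols), with the mean of the 3 days (line) and its SD (bar). The dotted line at 4 is zero signal, and in each panel the 6 hair germ and dermal papilla points lie above the 3 bulge points.

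Because WNT targets were among the shared genes, start-site windows from RefSeq (GRCm38.p6, 250 bases before to 50 after a start) were searched on both strands for the LEF/TCF core spelled CAAAG after AA or AT or TA or TT. A match was found for 17 of 117 shared higher genes with a window (14.5%), 29 of 186 shared lower genes (15.6%) and 851 of 6359 genes tested (13.4%). The share over all 27025 genes of the table was 18.9%. Windows with a match are printed for a higher gene, Tnfrsf19, and for lower genes described below, Kcnk2 and Ppp1r3c, on the gene's own strand with the match in capitals. The Tnfrsf19 window, for 1 of 2 starts listed, is chr14:61037938-61038237 on the minus strand and its match begins 202 bases before the start. The Kcnk2 window, for 1 of 4 starts listed, is chr1:189402224-189402523 on the minus strand with a match 221 bases before the start. The Ppp1r3c window is chr19:36736555-36736854 on the minus strand with matches 129 and 92 bases before the start.
Tnfrsf19: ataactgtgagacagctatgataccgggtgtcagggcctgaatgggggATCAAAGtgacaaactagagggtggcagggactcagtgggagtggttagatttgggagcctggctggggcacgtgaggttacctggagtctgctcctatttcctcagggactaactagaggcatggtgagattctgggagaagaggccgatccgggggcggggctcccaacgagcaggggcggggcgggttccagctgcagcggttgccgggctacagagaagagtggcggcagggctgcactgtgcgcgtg
Kcnk2: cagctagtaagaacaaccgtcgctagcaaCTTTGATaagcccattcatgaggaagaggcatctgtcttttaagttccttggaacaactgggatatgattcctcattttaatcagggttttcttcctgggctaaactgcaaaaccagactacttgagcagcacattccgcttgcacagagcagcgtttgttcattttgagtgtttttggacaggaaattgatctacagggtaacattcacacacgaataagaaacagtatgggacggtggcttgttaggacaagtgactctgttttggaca
Ppp1r3c: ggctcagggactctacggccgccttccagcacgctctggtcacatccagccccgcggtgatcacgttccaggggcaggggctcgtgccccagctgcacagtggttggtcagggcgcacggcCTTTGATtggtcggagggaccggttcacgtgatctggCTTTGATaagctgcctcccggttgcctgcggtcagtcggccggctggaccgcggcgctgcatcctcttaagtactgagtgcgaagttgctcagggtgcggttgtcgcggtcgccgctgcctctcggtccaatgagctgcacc
The printed matches show where these letters occur and are not measured binding sites. The motif was found in genes of both directions, and its shares were 14.5% and 15.6% beside 13.4% of the genes tested.

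Of 9 measured WNT ligand and R-spondin genes, 3 were shared higher and 0 shared lower, and the list's median difference from bulge was 1.63 against 0.05 over all genes. These were Wnt10a, Wnt6 and Wnt5a. Wnt10a, an epithelial hair follicle WNT, stood at 6.64, 6.74 and 6.88 in bulge, at 8.42, 7.99 and 7.79 in hair germ and at 8.14, 8.09 and 8.56 in dermal papilla. The lower populations overlapped each other and lay above bulge (1.41 ± 0.21 SE, limma, adjusted p = 0.00867). Wnt6 exceeded bulge by 2.17 and Wnt5a, mostly known for signalling without beta-catenin, by 3.26 (limma, adjusted p = 0.0176 and 0.0170). Without bulge of day 43 Wnt10a was at adjusted p = 0.0735 and Wnt6 at 0.107. Wnt6 also lost the call without bulge of day 69 or hair germ of day 56 (0.0966 and 0.0796), and Wnt5a without bulge of day 56 or 69 or hair germ of day 43 or 56 (0.0506 to 0.0834). Both lost it when 64 was added in place of 16 (0.0632 for Wnt6, 0.162 for Wnt5a) and in the GAPDH-restricted fit (0.0501 and 0.182).

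Among 8 secreted WNT antagonists, Dkk2 was shared higher and Dkk3 shared lower. Dkk2, a secreted modulator of the WNT co-receptor, stood at 4.12, 4.15 and 4.66 in bulge, at 4.51, 6.11 and 6.92 in hair germ and at 12.22, 12.53 and 12.27 in dermal papilla. Hair germ of day 43 lay within the bulge range. The mean was 4.78 ± 0.33 (SE) above bulge, the largest difference upward among shared genes (limma, adjusted p = 0.0369), but the call was lost without any of the 3 bulge arrays (0.0668 to 0.187), without dermal papilla of day 56 (0.0823) and without hair germ of day 56 or 69 (0.131 and 0.124). It was also lost with 64 added in place of 16 (0.12), without the filter on dim probe sets (0.0682) and without the day term. Dkk3 was 2.43 ± 0.26 (SE) below bulge (limma, adjusted p = 0.00851), and at adjusted p = 0.226 in the GAPDH-restricted fit.

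Of 24 measured WNT target and feedback genes 4 were shared higher and 1 shared lower, with a median of 0.64. Beside Apcdd1 and Tnfrsf19 these were Notum and Sox4 upward and Fzd7 downward. Apcdd1 and Tnfrsf19 were markers set for this comparison beforehand, so their part in the count is not a separate finding. Notum, a secreted enzyme that inactivates WNT proteins, stood at 5.60, 5.13 and 5.40 in bulge, at 6.41, 7.64 and 6.73 in hair germ and at 12.53, 12.25 and 12.18 in dermal papilla. Hair germ lay just above bulge and dermal papilla far above both (4.25 ± 0.26 SE, limma, adjusted p = 0.0119, and 0.0824 without bulge of day 56). Sox4, a transcription factor gene named after its values were seen, stood at 7.61, 7.51 and 7.80 in bulge, at 9.70, 9.83 and 10.11 in hair germ and at 10.43, 10.24 and 10.62 in dermal papilla. The arrays of a population lay close together without overlap between populations, and the mean exceeded bulge by 2.51 ± 0.16 (SE, limma, adjusted p = 7.22e-05).

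Fzd7, a WNT receptor, stood at 11.26, 11.31 and 10.82 in bulge, at 8.12, 9.20 and 7.93 in hair germ and at 8.20, 9.10 and 8.83 in dermal papilla. It was low on all 6 lower follicle arrays (-2.57 ± 0.23 SE, limma, adjusted p = 0.000451). Axin2, the commonly used WNT readout, exceeded bulge by 1.46 in hair germ but by 0.71 in dermal papilla and was not shared (limma, adjusted p = 0.0824). Lef1, the gene named in the red reporter used for sorting, exceeded bulge by 0.76 in hair germ but by 3.02 in dermal papilla, and was not shared either (limma, adjusted p = 0.518). Both were named after their values were seen.

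In the BMP pathway Bmp4 was shared higher, and the antagonist genes Grem1 and Fst and the response genes Id2 and Id3 were shared lower, while most members were not shared. Of 6 genes on the BMP ligand list 2 were shared higher and 0 lower (median 1.71), of 11 antagonist genes 0 and 2 (median -0.82) and of 11 response genes 0 and 2 (median -1.40). Taken singly, 3 of the 6 ligand list genes were higher and 2 lower than bulge in hair germ, and 5 higher and 1 lower in dermal papilla. Of the antagonist genes 0 were higher and 7 lower in hair germ, and 3 higher and 2 lower in dermal papilla. The shares over all genes were 12.2% higher and 7.56% lower in hair germ, and 16.1% and 19% in dermal papilla. Bmp4 stood at 5.31, 4.88 and 5.11 in bulge, at 7.65, 7.79 and 7.02 in hair germ and at 12.13, 12.02 and 12.20 in dermal papilla. The populations did not overlap, and the mean exceeded bulge by 4.70 ± 0.21 (SE), 26.0-fold (limma, adjusted p = 0.000274). Bmp1, which despite its name encodes a procollagen protease, exceeded bulge by 1.99 ± 0.21 (SE, limma, adjusted p = 0.0120, and 0.0616 or 0.0859 without bulge of day 56 or 69).

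Grem1, a secreted BMP antagonist, stood at 9.52, 10.39 and 9.93 in bulge, at 6.18, 6.91 and 6.02 in hair germ and at 5.31, 5.08 and 5.07 in dermal papilla. It was highest in bulge without overlap (-4.19 ± 0.23 SE, limma, adjusted p = 4.77e-05). Fst (follistatin), which binds activins and some BMPs, was lower by a log2 of -2.77 (limma, adjusted p = 0.00960, 0.0594 without bulge of day 43, 0.0719 without that of day 56, 0.182 in the GAPDH-restricted fit). Id2, a BMP-responsive transcription inhibitor, stood at 11.99 to 12.01 in bulge, at 9.84, 10.06 and 9.43 in hair germ and at 7.56, 7.27 and 8.97 in dermal papilla. It fell by 3.14 on the log2 scale in the lower follicle (limma, adjusted p = 0.00465), and in the GAPDH-restricted fit was at adjusted p = 0.0858. Id3 was at -2.03 (limma, adjusted p = 0.0317) and lost the call without any of 5 single arrays, bulge of day 43 or 69, dermal papilla of day 56 and hair germ of day 43 or 69 (0.0606 to 0.21). In the GAPDH-restricted fit Id3 was at -1.23 (0.0716).

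Among other signals, 2 of 5 measured FGF ligand genes were shared lower and 0 higher. Fgf18, a ligand known from resting bulge, stood at 11.11, 11.31 and 10.19 in bulge, at 4.34, 4.19 and 4.36 in hair germ, close to zero signal, and at 9.14, 5.11 and 5.55 in dermal papilla. Dermal papilla of day 43 was far above its 2 other days but still below bulge. On that array the summed signal of 20 bulge markers was 13640, against 9583 and 8643 on days 56 and 69 and 39556 to 43700 in bulge. That of keratinocyte markers was 1883 against 640 and 660. Kcnk2 and Lhx2, at 10.05 to 10.65 in bulge, stood at 4.60 and 4.66 on that array. On day 56 they were at 4.46 and 4.15, and on day 69 at 4.37 and 4.95. The part of bulge or keratinocyte cells in the Fgf18 value was not tested. The mean was -5.42 ± 0.58 (SE, limma, adjusted p = 0.00357), -6.02 without dermal papilla of day 43 and -4.80 without bulge of day 56 (limma, adjusted p = 3.67e-05 and 0.0324). Fgf1 was at -2.04 (limma, adjusted p = 0.0224) and lost the call without bulge of day 43 or 69 or hair germ of day 43 (0.145, 0.139 and 0.0886), and was at 0.242 in the GAPDH-restricted fit. In the FGF receptor and feedback list Spry1, an inhibitor of FGF signalling, was the 1 shared gene of 10, at 1.30 (limma, adjusted p = 0.0257), and lost the call without 5 single arrays, the 3 bulge arrays, dermal papilla of day 69 and hair germ of day 56 (0.0792 to 0.153), and in the GAPDH-restricted fit (0.0817).

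TGF-beta, hedgehog and Notch lists each held 1 shared gene, all lower. Over all genes 3.08% were shared lower, so 1 gene in a list of this size says little about its pathway. Ltbp2, which binds microfibrils, was at -2.32 (1 of 19, limma, adjusted p = 0.0121). Gas1, a hedgehog co-receptor, was at -1.14 (1 of 8, adjusted p = 0.0263) and Rbpj, the nuclear effector of Notch, at -0.88 (1 of 10, adjusted p = 0.0373), both by limma. Ltbp2 lost the call without bulge of day 43 or 56 or dermal papilla of day 56 (0.0610 to 0.0868), and Gas1 without bulge or dermal papilla of day 56 or 69 or hair germ of day 56 (0.0804 to 0.151). Rbpj lost it without any single array (0.0590 to 0.21) and in the GAPDH-restricted fit (0.17).

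**Figure D4:**
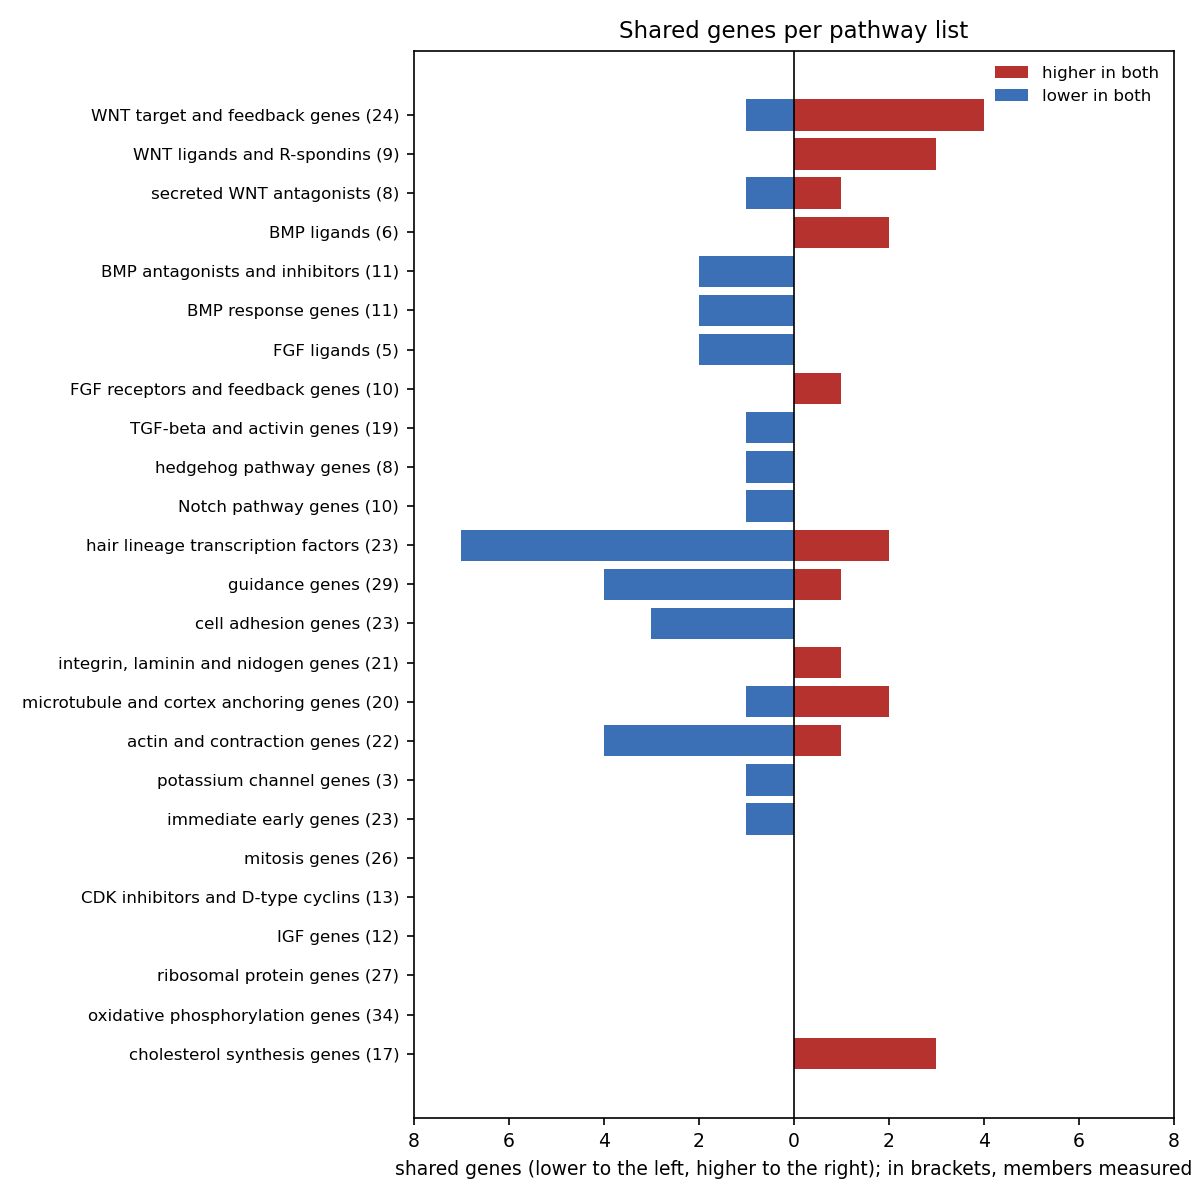
Number of shared genes in each pathway list, lower to the left and higher to the right, with the number of measured members in brackets. WNT target genes hold 4 higher, among them the preset markers Apcdd1 and Tnfrsf19, and 1 lower. Hair lineage transcription factors hold 2 higher and 7 lower, and the mitosis, ribosomal protein and oxidative phosphorylation lists 0 in either direction.

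Guidance genes moved both ways. Of 29 measured, Robo1 was shared higher and Sema3e, Plxna2, Efnb2 and Efna3 shared lower (median 0.05). Robo1, a receptor for SLIT proteins, stood at 5.07, 4.91 and 4.42 in bulge, at 7.59, 7.69 and 8.24 in hair germ and at 8.67, 8.28 and 8.96 in dermal papilla. All 6 lower follicle arrays were above bulge (3.44 ± 0.25 SE, limma, adjusted p = 0.000181). Sema3e, a secreted semaphorin, stood at 8.72, 9.03 and 10.25 in bulge, at 4.97, 5.14 and 6.07 in hair germ and at 4.61, 4.04 and 4.46 in dermal papilla. It was near zero signal in dermal papilla (-4.45 ± 0.27 SE, limma, adjusted p = 6.28e-05). The semaphorin receptor component gene Plxna2 was at -3.87 (limma, adjusted p = 0.00104) and the ephrin genes Efnb2 and Efna3 at -3.02 and -2.08 (limma, adjusted p = 0.0108 and 0.0303). Efnb2 lost the call without bulge of day 43 or 56 (0.0900 and 0.0588), and Efna3 without any bulge array (0.0809 to 0.169) or hair germ of day 43 or 69 (0.125 and 0.0681), and in the GAPDH-restricted fit (0.155).

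Of 23 measured cell adhesion genes 3 were shared lower and 0 higher. These were the neuronal-type adhesion gene Nrcam (-2.76), Cadm1 (-2.58) and the protocadherin gene Pcdh7 (-2.41), at adjusted p = 0.0176, 0.00488 and 0.00986 (limma). Nrcam lost the call without bulge of day 43 or 56 or hair germ of day 43 or 69 (0.0547 to 0.126), and Pcdh7 without bulge of day 43 or 56 (0.0563 and 0.0766). Ccn2, a matrix-associated growth regulator, was the 1 shared gene of 23 in the immediate early list, lower by a log2 of -2.81 (limma, adjusted p = 0.00242). In the GAPDH-restricted fit Cadm1 was at adjusted p = 0.0618, Nrcam at 0.437 and Ccn2 at 0.0834.

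Of 21 integrin, laminin and nidogen genes, Lamb1 was the 1 shared gene, higher. This laminin subunit gene stood at 6.19, 6.10 and 6.52 in bulge, at 8.09, 9.55 and 8.36 in hair germ and at 11.65, 11.08 and 11.29 in dermal papilla. Hair germ of day 56, which held the most dermal papilla marker signal, was the highest hair germ array. Without it the mean was 3.46 above bulge (limma, adjusted p = 0.00340), against 3.73 ± 0.30 (SE) with it (adjusted p = 0.00227). Spon1, a matrix protein gene, was 4.56 ± 0.20 (SE) above bulge (limma, adjusted p = 0.00330), by 7.57 in dermal papilla and 1.54 in hair germ, and a dimmer probe set gave 0.47 for hair germ. It was at adjusted p = 0.0590 in the GAPDH-restricted fit. Without hair germ of day 56 the mean differences were 4.58 for Bmp4, 4.03 for Notum, 4.54 for Spon1 and 3.19 for Scd2, each still shared (limma, adjusted p = 0.00154, 0.0385, 0.0157 and 0.0143). Dermal papilla had the larger difference from bulge in each, so these means say little about hair germ alone. The shared call still required hair germ to differ from bulge.

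Cytoskeletal genes moved both ways. In the microtubule and cortex list Phldb2, a marker set beforehand, and Phldb1 were shared higher and the spectraplakin gene Macf1 lower, of 20 measured. In the actin list of 22, Acta2 was higher and Pdlim3, Fhl1, Actn1 and Tagln2 were lower. Acta2, smooth muscle actin, stood at 5.55, 5.81 and 6.45 in bulge, at 7.46, 7.80 and 7.69 in hair germ and at 7.11, 7.96 and 7.99 in dermal papilla. Hair germ and dermal papilla overlapped, above bulge (1.73 ± 0.21 SE, limma, adjusted p = 0.00226). Actn1, an actin crosslinker, stood at 11.51, 11.48 and 10.94 in bulge, at 8.89, 8.92 and 8.60 in hair germ and at 9.01, 8.90 and 9.33 in dermal papilla. The lower populations were again alike in level and below bulge (-2.37 ± 0.20 SE, limma, adjusted p = 0.000303). Pdlim3 was at -4.25 (-5.03 without bulge of day 69) and Fhl1 at -2.47 (limma, adjusted p = 0.000856 for both). Phldb1 lost the call without bulge of day 43 (0.0535), Macf1 without bulge of day 43 or 56 (0.0646 and 0.0506) and Tagln2 without bulge of day 43 or 69 (0.0548 and 0.0956). In the GAPDH-restricted fit Tagln2 was at adjusted p = 0.229 and Phldb1 at 0.0645.

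Among metabolic genes, 3 of 17 measured cholesterol synthesis genes were shared higher and 0 lower (median 0.51). Cyp51, which demethylates lanosterol, stood at 6.18, 6.08 and 6.0 in bulge, at 8.62, 7.85 and 8.49 in hair germ and at 8.91, 7.58 and 8.25 in dermal papilla. Hair germ and dermal papilla overlapped fully and lay above bulge (2.20 ± 0.22 SE, limma, adjusted p = 0.000718). Fdps (1.36) and Mvd (1.12), enzymes of the earlier mevalonate steps, passed at adjusted p = 0.0304 and 0.0308 (limma), but depended on single arrays. Fdps lost the call without any bulge array, dermal papilla of day 43 or 69 or hair germ of day 56 or 69 (0.0573 to 0.175). Mvd lost it without any array but hair germ of day 43 (0.0559 to 0.172) and in the GAPDH-restricted fit. Both lost it without the filter on dim probe sets, and Mvd also with quantile normalization and with median centring. Of the fatty acid desaturase genes, Scd2 stood at 6.95, 6.86 and 5.82 in bulge, at 9.20, 10.10 and 8.58 in hair germ and at 9.92 to 11.16, lowest on day 56, in dermal papilla. It was lowest in bulge (3.45 ± 0.37 SE, limma, adjusted p = 0.00332), and Scd1 exceeded bulge by 2.22 (limma, adjusted p = 0.00532, and 0.0537 in the GAPDH-restricted fit). Scd1 is also on the sebaceous and adipocyte marker list. Fabp4, a fatty acid binding protein of adipocytes on the same list, stood at 4.12, 4.43 and 5.19 in bulge, at 4.50, 6.38 and 7.35 in hair germ and at 7.83, 8.80 and 9.93 in dermal papilla. Hair germ of day 43 lay within the bulge range. Fabp4 exceeded bulge by 2.88 ± 0.29 (SE, limma, adjusted p = 0.0228), and lost the call without bulge of day 56 or 69, dermal papilla of day 56 or hair germ of day 56 or 69 (0.0518 to 0.137) and in the GAPDH-restricted fit (0.0988). The summed signals of that list, given with the other cell type markers below, were higher than bulge on all 6 lower follicle arrays, and their part in the Scd1, Scd2 and Fabp4 values was not tested.

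Dio2, the enzyme that activates thyroid hormone, stood at 5.41, 5.12 and 4.64 in bulge, at 8.90, 8.85 and 7.76 in hair germ and at 7.79, 9.41 and 9.66 in dermal papilla. Both lower populations were above bulge and overlapped each other (3.67 ± 0.40 SE, limma, adjusted p = 0.00152). Gna14, a G protein alpha subunit gene, and Bhlhe40, a circadian and hypoxia-linked repressor gene, were higher by 3.33 and 3.22 (limma, adjusted p = 6.47e-05 and 0.000550). Trim47, a ubiquitin ligase family gene, was at 4.37 to 4.88 in bulge, 7.70 to 7.77 in hair germ and 8.28 to 8.45 in dermal papilla. Its 9 values did not overlap between populations (3.46 ± 0.20 SE, limma, adjusted p = 4.68e-05).

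The potassium channel list held 1 shared gene of 3, lower. Kcnk2 (TREK-1), a potassium leak channel gene, stood at 10.48, 10.65 and 10.05 in bulge, at 5.70, 6.06 and 4.71 in hair germ and at 4.60, 4.46 and 4.37 in dermal papilla. Every bulge array was far above every lower follicle array, and the mean was -5.41 ± 0.23 (SE, limma, adjusted p = 1.26e-05). Ppp1r3c, a glycogen-targeting phosphatase subunit, stood at 8.88, 9.53 and 8.51 in bulge and at 4.19 to 4.94 on all 6 lower follicle arrays, close to zero signal (-4.56 ± 0.27 SE, limma, adjusted p = 4.50e-05). Sncg, a synuclein gene, was at -4.75 and Ramp1, part of the CGRP neuropeptide receptor, at -4.20 (limma, adjusted p = 1.75e-05 and 0.000141).

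**Figure D5:**
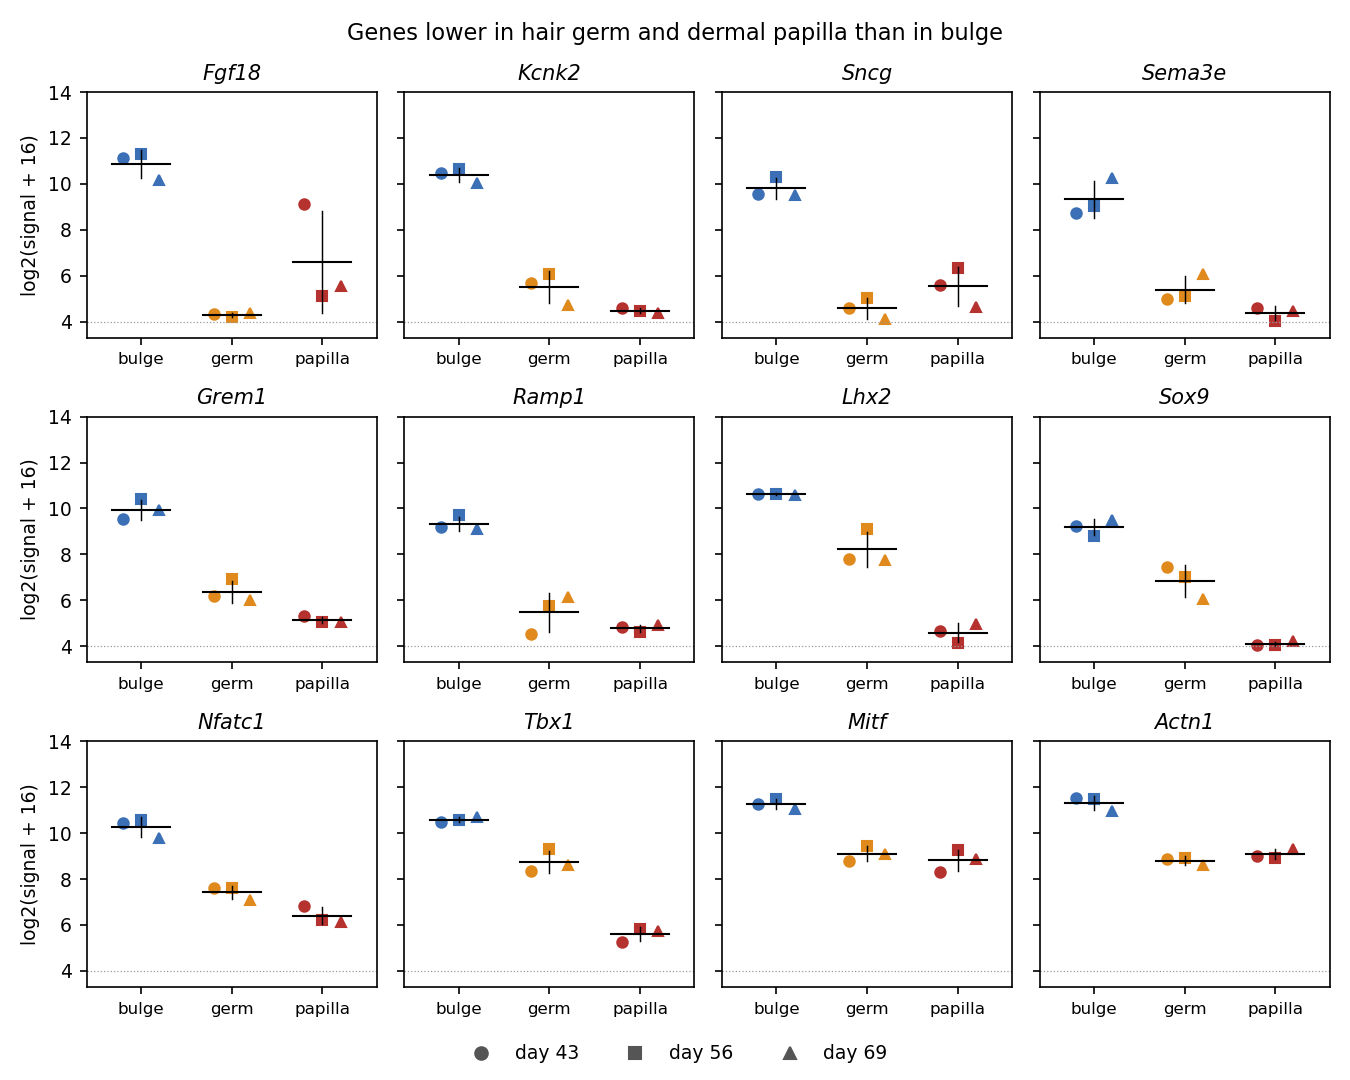
Expression of 12 shared lower genes as log2(signal + 16) per array, by population and day (symbols), with the mean of the 3 days (line) and its SD (bar). The dotted line at 4 is zero signal; in each panel the 3 bulge points lie above the other 6, and Fgf18 in dermal papilla of day 43 stands at 9.14.

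Transcription factors of the hair lineage were mostly lower where shared. Of 23 measured, 7 were shared lower and 2 shared higher, while the list's median was -0.08. Lhx2, a bulge stem cell regulator, stood at 10.64, 10.64 and 10.59 in bulge, at 7.78, 9.11 and 7.76 in hair germ and at 4.66, 4.15 and 4.95 in dermal papilla. The populations were ordered bulge, hair germ, dermal papilla without overlap (-4.22 ± 0.31 SE, limma, adjusted p = 0.00257). Sox9, needed for the bulge pool, stood at 9.24, 8.80 and 9.50 in bulge, at 7.44, 7.03 and 6.06 in hair germ and at 4.05 to 4.22 in dermal papilla. The same order held (-3.70 ± 0.29 SE, limma, adjusted p = 0.00239), although adding 1 in place of 16 before the log gave adjusted p = 0.0862. Tbx1 and Foxc1 were at -3.40 and -4.00 (limma, adjusted p = 0.000856 and 0.000486).

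Nfatc1, a factor of stem cell quiescence named after its values were seen, stood at 10.43, 10.57 and 9.78 in bulge, at 7.60, 7.59 and 7.11 in hair germ and at 6.84, 6.22 and 6.15 in dermal papilla. It was again highest in bulge (-3.34 ± 0.19 SE, limma, adjusted p = 6.25e-05). Of 20 measured bulge stem cell markers 11 were shared lower and 0 higher, with a median of -2.74. Cd34 was among them at -6.66, and as a gene of the sort gates it checks the sorting only. The list overlaps the transcription factor list in Lhx2, Sox9, Nfatc1, Tbx1 and Foxc1. It also shares Fst with the BMP antagonist list, Dkk3 with the WNT antagonist list and Ltbp2 with the TGF-beta list. Such markers are chosen in the field for being high in bulge, so these shared lower calls are not independent of that choice. In the GAPDH-restricted fit 7 of the 20 were shared lower.

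Of 5 measured sebaceous and adipocyte markers 2, Scd1 and Fabp4, were shared higher, and of 3 muscle markers 1, Acta2. The summed sebaceous and adipocyte signal was 1672 to 2637 in bulge, 2676 to 4550 in hair germ and 3500 to 5966 in dermal papilla, and the summed muscle signal 456 to 601, 421 to 619 and 657 to 956. The part of such cells in these differences was not tested.

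Of 18 dermal papilla markers 1, Bmp4, was shared, and of 10 fibroblast markers 0. Of 7 epidermal differentiation markers Calml3 was shared lower (-4.51, limma, adjusted p = 0.000274), and of 14 keratinocyte markers Epcam (-3.11, limma, adjusted p = 0.0119, and 0.0913 or 0.0715 without bulge of day 56 or 69). Both went against most called members of their lists in hair germ. There 5 of the 7 differentiation markers were higher than bulge and 1 lower, and 3 of the 14 keratinocyte markers higher and 1 lower. Among all genes, 12.2% were higher and 7.56% lower than bulge in hair germ. Summed differentiation marker signals were 5423 to 8604 in bulge, 15970 to 37119 in hair germ and 333 to 769 in dermal papilla. Epcam was at adjusted p = 0.12 with 1 added in place of 16 and at 0.0929 in the GAPDH-restricted fit. Of 5 measured melanocyte markers Mitf was shared, lower. It stood at 11.26, 11.49 and 11.06 in bulge, at 8.78, 9.44 and 9.07 in hair germ and at 8.31, 9.25 and 8.88 in dermal papilla, all 6 below bulge (-2.32 ± 0.18 SE, limma, adjusted p = 0.000220). Summed melanocyte marker signals were 2249 to 2974 in bulge, 2143 to 4945 in hair germ and 414 to 791 in dermal papilla. Dermal papilla cells were sorted as negative for CD117 (Kit), so their low melanocyte sum is not independent of the gate. In hair germ Mitf went against its list, of which 3 markers were higher than bulge and 1, Mitf, lower (median 3.16).

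The leukocyte gene Ptprc encodes CD45, against which dermal papilla cells were selected. It was at 7.01 to 7.33 in bulge, 5.40 to 6.23 in hair germ and 4.04 to 4.52 in dermal papilla. It was shared lower (-2.07, limma, adjusted p = 0.0219), and the call was lost without any bulge array (0.0657 to 0.15) or hair germ of day 43 or 56 (0.0880 and 0.0560), with 1 added in place of 16 (0.212) and in the GAPDH-restricted fit (0.0544). The T cell genes Cd3g, Cd7 and Trat1, named after their values were seen, were lower too, at -2.27, -2.21 and -2.17 (limma, adjusted p = 0.0149, 0.00332 and 0.00330). Cd3g was at adjusted p = 0.106 without bulge of day 43, 0.0910 without that of day 56 and 0.0547 without hair germ of day 43, and at 0.12 with 1 added in place of 16. Cd7 was at 0.0550 in the GAPDH-restricted fit. The leukocyte list did not move with these genes in hair germ. Of its 4 measured markers 2 were higher than bulge in hair germ and 1, Ptprc, lower, while 3 were lower in dermal papilla. Among all genes these shares were 12.2%, 7.56% and 19%. Summed signals of the 4 measured leukocyte markers were 489 to 616 in bulge, 463 to 678 in hair germ and 70.4, 282 and 580 in dermal papilla. Because dermal papilla was sorted against CD45, its low Ptprc value checks the sorting only. Its T cell gene values are not independent of that gate. The part of leukocytes in these differences was not tested.

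Many shared genes also differed between dermal papilla and hair germ, at a share near that of all genes for the higher ones. Of the 154 higher genes 63 (40.9%) differed between dermal papilla and hair germ, 54 with dermal papilla above and 9 below. Of the 240 lower genes 123 (51.2%) differed, 13 with dermal papilla above and 110 below. Over all genes 3062 (39.3%) differed in this contrast, 1207 higher (15.5%) and 1855 lower (23.8%) in dermal papilla, or 1451 and 1482 after median centring. The difference from bulge was the larger in dermal papilla for 107 of 154 and 189 of 240 genes. This was not counted over all genes, of which 35.1% differed from bulge in dermal papilla and 19.8% in hair germ. It therefore cannot be read as particular to the shared genes. Tcim, a regulator linked to WNT signalling, showed the reverse, at 5.49 to 6.73 in bulge, 10.12 to 10.95 in hair germ and 7.01 to 8.45 in dermal papilla. Its mean exceeded bulge by 3.00 ± 0.18 (SE, limma, adjusted p = 0.00166), and adjusted p was 0.138 in the GAPDH-restricted fit.

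Some genes had opposite signs in the 2 lower populations. By the adjusted p used for shared genes, below 0.05, but without the same-day rule, 88 genes (1.13%) were higher in hair germ and lower in dermal papilla than in bulge. The reverse held for 23 (0.295%). Krt14, the basal keratin gene of the green reporter, is an example picked outside the naming rules given below, at 2.11 in hair germ and -5.85 in dermal papilla. Dermal papilla was sorted as GFP(-) and both epithelial populations as GFP(+), so its value in dermal papilla checks the sorting only. Of 26 mitosis genes 26 were higher than bulge in hair germ, 6 were lower and 0 higher in dermal papilla, and 0 were shared. Beside these stand 12.2% of all genes higher in hair germ, and 19% lower and 16.1% higher in dermal papilla. CDK inhibitor, IGF, ribosomal protein and oxidative phosphorylation lists also held 0 shared genes, of 13, 12, 27 and 34 measured. With 5.05% of all genes shared, 0 in lists of this size says little about them.

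Changes with age differed between shared genes. Day 69 minus day 43 was 2.85 for Fabp4 and 2.41 for Dkk2 in hair germ and -3.60 for Fgf18 in dermal papilla, genes picked here after their values were seen. The median of this signed change over the 154 higher genes was 0.20 in hair germ, 0.13 in dermal papilla and 0.04 in bulge, beside 0.13, 0.07 and 0.01 over all genes. For the 240 lower genes these medians were 0.21, 0.05 and 0.01. With 1 array per population and day these are descriptions without a test. At the threshold, Calr (1.15, adjusted p = 0.0494) and Reep6 (1.18, 0.0497) were just inside the higher group and Ddr2 (2.05, 0.0503) and Brd8 (0.72, 0.0505) just outside. F11r (-2.83) and Sesn1 (-1.06, both 0.0488) were just inside the lower group, and Hes6 (-1.10, 0.0502) and Tiam1 (-2.59, 0.0503) just outside (all limma).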

How the data were processed

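RNA of sorted mouse back skin cells was measured on 9 oligonucleotide arrays, 3 populations on 3 days. Per the submitters' processing notes the authors made the values with GCOS and MAS5, and the deposited values are probe set intensity on a linear scale. The scaling target is not given in the sources used here. Median signals ran from 39.9 to 56.3. Precision is limited by there being 3 arrays per population.

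From these, log2(signal + 16) was taken without further scaling. Control probe sets (64 of 22690) were left out, and a probe set was kept if above its array's median on at least 3 arrays, which left 12801. Of all probe sets 20380 named 1 gene in the supplied annotation, 691 several and 1555 none, and 20351 matched the RefSeq gene table (GRCm38.p6). The brightest kept probe set stood for a gene, giving 7796 genes tested of 12393 named. Another kept probe set disagreed in direction for 5 of 77 shared higher and 7 of 89 shared lower genes with several.

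A linear model with population and day as additive terms (limma 3.58.1, R 4.3.3, eBayes with trend, 4 residual degrees of freedom) gave two-sided p values, adjusted by Benjamini-Hochberg. Hair germ and dermal papilla kept levels of their own, and the fit with their 6 arrays as 1 group is an alternative. The steps were tested on simulated data. A list is described by its counts and median, without a test. Its counts of shared genes stand beside 1.98% shared higher and 3.08% shared lower over all genes. Lists, gene choices and the comparison were chosen with earlier results of these data known. Named genes were the 3 markers, the 15 largest shared differences each way, up to 4 shared members per list by size, the 3 shared genes each way that differed most and least between dermal papilla and hair germ, and the 2 nearest the threshold on each side. Not every gene so chosen is described. Alternatives changed the pseudocount, scaling, filter, probe set rule, day block, trend and arrays, or left out the arrays with a GAPDH 3'/5' ratio above 6.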

Additional observations from a re-analysis of the deposited data

Results flagged for a closer look

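Among the shared genes, those named because dermal papilla and hair germ differed most are given here, since the 2 populations' differences from bulge differed from each other in a test of dermal papilla minus hair germ (limma, adjusted p below 0.05 for each). Of higher genes with the larger difference in dermal papilla, Dkk2 differed by a log2 of 6.50, Spon1 by 6.04 and Notum by 5.39. Of higher genes with the larger difference in hair germ, Tcim differed by -2.87, Abi3bp by -2.64 and Slc22a4 by -1.72. Among lower genes, dermal papilla was further below hair germ in Ptn (-4.46), Bnipl (-4.19) and F11r (-4.04), and above it in Fgf18 (2.30), Sh3kbp1 (2.09) and Pmp22 (1.95). In dermal papilla Fgf18 stood at 9.14 on day 43 and at 5.11 and 5.55 on days 56 and 69. The causes were not tested.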

How the results depend on the processing

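For none of the named genes did the mean difference from bulge reverse direction in the 19 alternatives, and 37 of the 83 named shared genes kept their call in all of them. Where a call was lost, the signs of hair germ and dermal papilla taken singly were not compared. For the other named genes, not every setting that lost the call is given above. The 6 lower follicle arrays taken as 1 group against bulge called 152 genes (60 higher, 92 lower) against 2255 with separate levels, and all 152 were among the 394 shared genes. In that fit the difference between hair germ and dermal papilla enters the residual spread. Without the 3 arrays of GAPDH ratio above 6, and with no block, hair germ minus bulge gave 1000 genes and shared lower genes 153. Shared higher genes came to 132 there, of which 78 were among the 154. Leaving out 1 array at a time gave 1390 to 2447 genes for the mean, 783 to 1609 for hair germ minus bulge, 2031 to 3053 for dermal papilla minus bulge, 75 to 154 shared higher, 105 to 233 shared lower and 2409 to 2879 for dermal papilla minus hair germ. The lowest counts of the mean, of both contrasts with bulge and of the shared genes came without a bulge array, which leaves 2 for every contrast with bulge.

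Day as a replicate block rests on age in the labels. Whether populations of a day share mice is not stated, and same-day deviations correlated at -0.0965 to 0.184 across genes, which does not settle the pairing. With no replicate block the counts were 2212 for the mean, 1479 and 2688 for hair germ and dermal papilla, 151 and 235 for the shared genes and 3015 for dermal papilla minus hair germ. The remaining alternatives kept total counts within 1.5 times. By direction, median centring moved hair germ minus bulge from 952 to 613 higher and from 589 to 941 lower. Dim signals limit folds near zero signal, and 3 arrays per population limit small differences.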
